A study of Mus musculus with 23 samples.

Results

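The transcripts of the autophagy machinery were compared in the CA3 field of the hippocampus between UBB+1 tg mice and wild-type mice. The list holds 37 genes, from the kinase complex that starts autophagosome formation to the receptors that bind ubiquitinated cargo, and was matched by gene symbol to probe sets annotated to a single gene. Of the 37 genes, 36 had such a probe set, with 84 probe sets in all, 60 of the 22625 tested on the MOE430A array and 24 of the 22511 tested on the MOE430B array. No probe set annotated to Optn alone was found, and 16 genes were measured on both arrays. None of the 84 probe sets passed a false discovery rate of 10%, and neither did any other probe set of the arrays. The values in the UBB+1 tg and wild-type mice overlapped for every one of the 84. Over all probe sets, only 0.234% on MOE430A and 0.142% on MOE430B did not overlap.

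In macroautophagy, a double membrane grows around cytoplasm, closes to an autophagosome and fuses with the lysosome. A kinase complex and a lipid kinase complex start the process, ubiquitin-like conjugation systems attach proteins of the Atg8 family to the membrane, and receptors that bind both ubiquitin and an Atg8 protein bring cargo in. In neurons this is a main route for the removal of aggregated proteins and worn organelles, beside the proteasome.

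UBB+1 is a frameshifted ubiquitin B that inhibits the proteasome. UBB+1 tg mice, heterozygous animals of a single line on a C57BL/6J background, carry human UBB+1 under a CamKIIα promoter, which is active in neurons of the postnatal brain and most strongly in the forebrain. Wild-type mice were littermates without the transgene, and all mice were 18 months old. CA3 was cut by laser from brain sections of 35 µm, so the tissue holds glia and interneurons beside pyramidal cells, and fewer cells of a type cannot be told apart from less RNA per cell. The RNA of each mouse, 5 ng in total, went through 2 rounds of amplification before hybridization to 1-colour arrays. MOE430A holds 6 UBB+1 tg and 5 wild-type mice, MOE430B 6 of either genotype. Mice are named by genotype and animal number. Values are log2 RMA intensities, which rise by 1 for each doubling of the signal and can be compared between mice for a probe set but not between probe sets.

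A probe set on MOE430A that detects a transcribed part of the transgene promoter was at 8.45 or more in each UBB+1 tg mouse and at 6.85 or less in each wild-type mouse, so the labels held for these mice. The arrays differed in how far the amplified RNA reached toward the 5′ end. The 3′ minus 5′ difference of the Gapdh and β-actin control probe sets was 2.65 to 6.10 on the log2 scale on MOE430A and 2.41 to 6.39 on MOE430B. On MOE430A its mean was 4.61 ± 0.83 (SD, n = 6) in UBB+1 tg and 4.11 ± 1.45 (SD, n = 5) in wild-type animals (p = 0.455, two-sided exact permutation test). On MOE430B the means were 4.85 ± 0.81 and 4.22 ± 1.51 (SD, n = 6 each; p = 0.407, two-sided exact permutation test). Clustering of all probe sets split the mice into 3 array sets in the order of this difference. The low set held tg271, wt287 and wt290, the high set tg270 and wt289, and the middle set the other mice. The middle set thus held 4 UBB+1 tg and only 2 wild-type mice on MOE430A, and 4 and 3 on MOE430B. Standard errors and p-values of the middle set alone, given below, rest on these few wild-type mice. The part of the array sets in each result was not tested. A block for the array set turned the sign of the genotype difference for 9 of the 36 genes below, and the middle set alone that of 10, and those values stand beside each such gene.

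Of 55 marker genes of 11 cell types and fields, 48 had a probe set on MOE430A, and only Cacng5, a CA2 marker, had an unadjusted p under 0.05 between the genotypes. The summed intensity of the CA3 markers Bok, Dkk3, Nectin3 and Iyd was 2693 to 6895 in UBB+1 tg and 3000 to 5955 in wild-type mice. That of the measured dentate granule cell markers was 129 to 178 and 130 to 178, with Prox1 dim. The sums of microglial markers were 1492 to 2406 in UBB+1 tg and 1366 to 2853 in wild-type mice, those of astrocyte markers 1000 to 2062 and 1104 to 2048, and those of oligodendrocyte markers 7308 to 10623 and 6677 to 8432. Neuron markers summed to 8849 to 11000 in UBB+1 tg and 6638 to 9807 in wild-type mice, and interneuron markers to 1274 to 3821 and 1709 to 2931. CA2 markers summed to 606 to 2654 in UBB+1 tg and 540 to 1220 in wild-type mice. The ranges of the genotypes overlapped for each of the 11 lists, but whether the cell content was alike was not tested.

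Over the whole list, the median difference of the autophagy genes lay close to that of all probe sets of the arrays. The spread on MOE430A was wider, with a median absolute log2 fold change of 0.12, against 0.09, and a median standard error of 0.17, against 0.13. On MOE430B the median absolute log2 fold change was 0.06, against 0.07, and the median standard error 0.14, against 0.10. On MOE430A, 34 of the 60 probe sets were higher in UBB+1 tg mice, with a median log2 fold change of 0.02, against 51.7% and a median of 0.00 over all probe sets. Blocked by array set, 24 of the 60 were higher and the median was -0.02. On MOE430B, 14 of 24 were higher, with a median of 0.00, against 47.6% and a median of -0.01 over all probe sets. No probe set of either array passed the false discovery rate (limma, 0% called on each array), and the members' adjusted p-values were at least 0.984. At an unadjusted p under 0.05, 2 of the 60 members on MOE430A were called, against 3.48% of all probe sets, and 0 of 24 on MOE430B, against 3.05%. With the block, these counts were 6 of 60, against 7.19%, and 0 of 24, against 5.06%. The genotypes did not overlap for 0.234% of all probe sets on MOE430A and 0.142% on MOE430B, and for 0 of the 84 members.

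**Figure D1:**
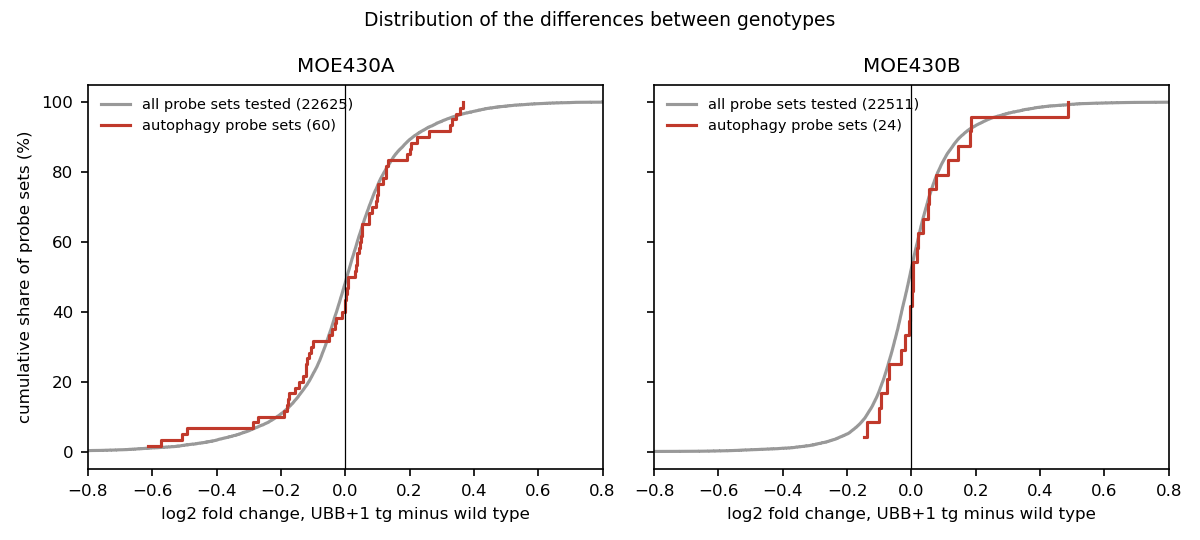
Cumulative share of probe sets (vertical axis, %) by the log2 difference of the genotypes, UBB+1 tg minus wild type (horizontal axis), for all probe sets tested (grey) and for those of autophagy genes (red) on MOE430A (left, 60 of 22625) and MOE430B (right, 24 of 22511). The red steps cross 50% at medians of 0.02 and 0.00, close to the grey curves.

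The 95% intervals bound the size of the differences. Each gene was represented by its brightest probe set, 32 on MOE430A and 4 on MOE430B. Of these 36, 23 were higher and 13 lower in UBB+1 tg mice, and with the block 16 were higher and 20 lower. The interval held 0 for 35 of the 36 genes, the exception being Uvrag. For 30 of the 36 genes it lay wholly within a 2-fold change either way, and for 19 within a 1.5-fold change. The 6 genes for which a change of 2-fold lay inside the interval were Atg101, Epg5, Gabarap, Gabarapl2, Map1lc3a and Rb1cc1. The range among the wild-type mice alone was wider than the difference between the genotypes for all 36 genes.

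**Figure D2:**
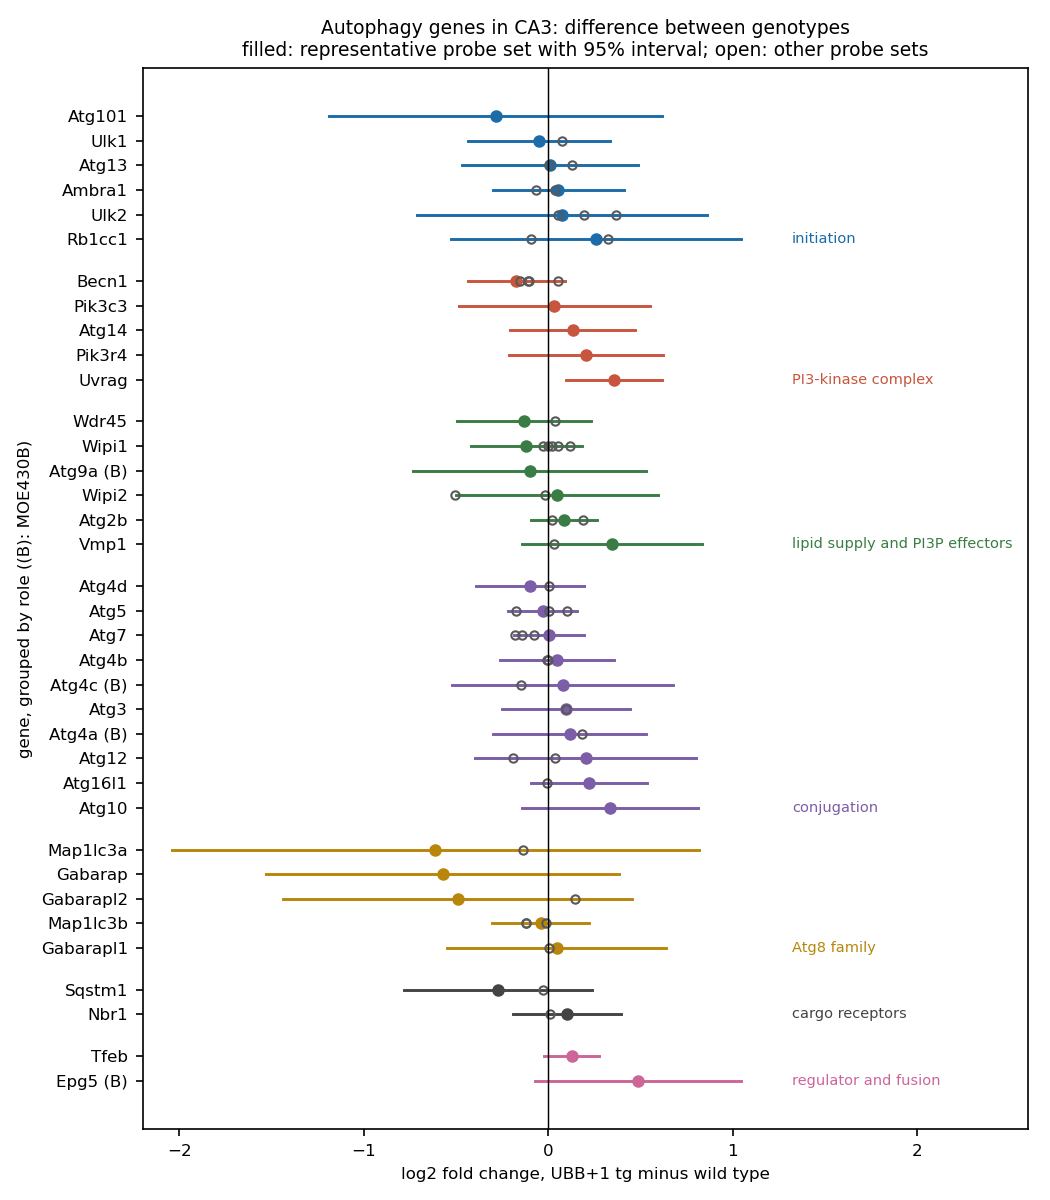
Difference of the genotypes on the log2 scale (horizontal axis, UBB+1 tg minus wild type) of 36 autophagy genes grouped by role (vertical axis), with the representative probe set and its 95% interval (filled) and the other probe sets of the gene (open). Only the interval of Uvrag, from 0.10 to 0.62, leaves out 0, and those of Map1lc3a, Gabarap and Gabarapl2 are the widest.

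The initiation group comprises the kinases Ulk1 and Ulk2, their partners Atg13, Rb1cc1 (the scaffold also called FIP200) and Atg101, and Ambra1, which links them to the lipid kinase complex. Of its 6 representative probe sets, 4 were higher and 2 lower in UBB+1 tg mice, with none at an unadjusted p under 0.05. With the block for the array set, only that of Ambra1 was higher and 5 were lower. The log2 fold change of Ambra1 was 0.05 (standard error 0.16), and 0.13 (0.15) with the block. In the middle set alone it was 0.44 (0.17), with an unadjusted p of 0.0432 and an adjusted p of 0.923 (limma). The 2 probe sets of Ambra1 on MOE430B were at -0.07 (0.09) and 0.04 (0.07). In the middle set alone they were at -0.09 (0.07) and 0.07 (0.08), so the difference of that size was not seen in them. Atg13 was at 0.01 (0.22), and at -0.05 (0.12) with the block, and Ulk1 at -0.05 (0.17). The representative probe set of Ulk2 was at 0.08 (0.36), but at -0.16 (0.28) with the block and -0.63 (0.41) in the middle set alone. Its other 3 probe sets were at 0.37, 0.19 and, for the dim one on MOE430B, 0.05. Rb1cc1 was at 0.26 (0.36), at -0.03 (0.13) with the block and at -0.02 (0.19) in the middle set alone. Atg101, which has a single probe set, was at -0.29 (0.41), and its 11 values spanned 2.52 on the log2 scale. The lowest of them was that of tg270, without which Atg101 was at 0.04, and a fit with the 3′-5′ difference as a further term gave -0.02. With the block for the array set, however, Atg101 stayed at -0.30 (0.14), and in the middle set alone it was at -0.12 (0.18).

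The PI3-kinase complex makes the lipid PI3P on the forming membrane. Pik3c3 is the catalytic subunit, Pik3r4 a regulatory subunit, Becn1 the beclin scaffold, and Atg14 and Uvrag are alternative partners that define complexes of autophagosome formation and of endosomal traffic. Of the 5 representative probe sets, 4 were higher and 1, that of Becn1, was lower.

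Uvrag had the smallest p of the 84 probe sets. Its probe set 1454706_at was at 8.46, 8.04, 8.52, 8.23, 8.35 and 8.01 in tg270, tg271, tg273, tg274, tg276 and tg277, and at 7.68, 8.15, 7.94, 7.83 and 7.96 in wt287, wt289, wt290, wt291 and wt321. Each of the 6 UBB+1 tg mice exceeded the wild-type mean, and wt289 alone lay within their range. All UBB+1 tg mice lay on 1 side of the wild-type mean for 7 of the 84 probe sets. The share over all probe sets was not computed, so this sets none of the 7 apart. The genotypes differed by 0.36 on the log2 scale (standard error 0.12, 95% interval 0.10 to 0.62), or 1.28-fold, with an unadjusted p of 0.0116 and an adjusted p of 0.984 (limma). Blocked by array set it was 0.33 (0.10), in the middle set alone 0.38 (0.15), and 0.30 to 0.42 when each mouse was left out in turn. No further probe set annotated to Uvrag alone was found.

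Becn1 was measured by 5 probe sets. On MOE430A all 4 were lower in UBB+1 tg mice, with log2 fold changes of -0.17 (standard error 0.12), -0.11, -0.11 and -0.16. For 2 of them, 1437006_x_at and 1435219_x_at, each of the 6 UBB+1 tg mice was below the wild-type mean. The fifth, on MOE430B, was higher, at 0.05 (0.14), and none of the 5 had an unadjusted p under 0.05. In the middle set alone 1435219_x_at was at -0.31 (0.12, unadjusted p = 0.0382, adjusted p = 0.923, limma) and 1460320_at at 0.15 (0.26). Of the MOE430A probe sets, 3 bear a suffix for probes that can match several transcripts.

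Pik3r4 was at 0.21 (0.19), and at 0.30 (0.12) blocked by array set, where its unadjusted p was 0.0365 and its adjusted p 0.687 (limma). Atg14 was at 0.13 (0.16), and at -0.07 (0.16) in the middle set alone, and Pik3c3 at 0.03 (0.24). Each of these 3 genes had a single probe set.

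Lipid supply and PI3P effectors are the membrane protein Atg9a, the lipid transfer protein Atg2b, the PI3P binders Wipi1, Wipi2 and Wdr45, and Vmp1, a lipid scramblase of the endoplasmic reticulum. Of their 6 representative probe sets, 3 were higher and 3 lower, with log2 fold changes from -0.13 for Wdr45 to 0.34 for Vmp1 (standard error 0.22), which was at 0.15 (0.12) when blocked by array set. The other probe set of Vmp1, 1421491_a_at, measured in the same mice, was at 0.03 (0.19), and at -0.05 (0.10) with the block. Atg2b was at 0.08 (0.08) and its other probe sets at 0.19 and 0.02. Atg9a, on MOE430B, was at -0.10 (0.29), but at 0.09 (0.13) with the block and 0.18 (0.18) in the middle set alone. Wipi1, with 6 probe sets, ranged from -0.12 to 0.12 over them.

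Wipi2, which recruits the conjugation machinery to PI3P, was the other gene with an unadjusted p under 0.05, in 1 of its 3 probe sets. Probe set 1428882_at was at 6.04, 6.63, 6.17, 6.09, 6.54 and 6.55 in the UBB+1 tg mice, in the order above, and at 7.14, 6.57, 7.10, 6.25 and 7.17 in the wild-type mice. Each of the 6 UBB+1 tg mice was below the wild-type mean, but wt289 and wt291 lay within their range. The difference was -0.51 on the log2 scale (standard error 0.19, 95% interval -0.93 to -0.09), a ratio of 0.703, with an unadjusted p of 0.0217 and an adjusted p of 0.984 (limma). The block gave -0.43 (0.16), with an unadjusted p of 0.0244 (limma). Without wt287, wt290 or wt321 the unadjusted p was 0.0566, 0.0551 or 0.0581 (limma), and in the middle array set alone the log2 fold change was -0.37 (standard error 0.28). The brightest probe set of Wipi2, 1429367_at, was at 0.05 (0.25), at -0.12 (0.13) with the block and at -0.25 (0.16) in the middle set alone. That on MOE430B, 1456999_at, was at -0.02 (0.18), and at 0.08 (0.12) with the block. The difference in the one probe set was thus not seen at that size in the others, of which 1429367_at was measured in the same mice.

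Wdr45 also differed between its probe sets. Blocked by array set, 1424786_s_at was lower in UBB+1 tg mice by a log2 fold change of -0.27 (standard error 0.10, unadjusted p = 0.0218, adjusted p = 0.687, limma), and in the middle set alone it was at -0.35 (0.12). The other, 1451754_a_at, was at -0.01 with the block.

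The conjugation group holds the ubiquitin-like protein Atg12, the E1-like enzyme Atg7, the E2-like enzymes Atg3 and Atg10, the acceptor Atg5 with its partner Atg16l1, and the proteases Atg4a to Atg4d, which process Atg8 proteins. Of the 10 representative probe sets, 8 were higher and 2 lower, with a median log2 fold change of 0.09, but of all 25 probe sets of these genes 14 were higher, with a median of 0.00. With the block, 5 of the 10 were higher and 5 lower, with a median of 0.00. Without the block, the values ran from -0.10 for Atg4d (standard error 0.13) to 0.33 for Atg10 (0.22), and none had an unadjusted p under 0.05. Atg10 was at 0.22 (0.18) with the block and at 0.11 without wt287, and Atg4d at 0.03 (0.11) in the middle set alone. Atg7 was at 0.00 (0.09) and Atg5 at -0.03 (0.09), the narrowest of the 10, with intervals of -0.19 to 0.19 and -0.22 to 0.16. The other probe sets of Atg7 were all lower, at -0.15 (0.19), -0.18 (0.17) and, for the dim one on MOE430B, -0.08 (0.07). Probe set 1418235_at of Atg5 was at -0.18 (0.15), and at -0.22 (0.11) with the block. Atg3 was at 0.10 (0.16), and at -0.02 (0.10) with the block, with its other, dim probe set also at 0.10. Atg16l1 was at 0.22 (0.14), and at 0.11 (0.10) with the block. Among the proteases, Atg4a was at 0.12 (0.19), though at -0.07 without tg271, and Atg4c at 0.08 (0.28). Atg4b was at 0.05 (0.14), at 0.00 with the block and at -0.03 (0.12) in the middle set alone.

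Atg12 was at 0.20 (0.27) with probe set 1451747_a_at and at -0.19 (0.23) with 1451746_a_at. With the block both were at -0.02, and the first was at -0.14 (0.19) in the middle set alone. Among the wild-type mice these 2 probe sets also went opposite ways, at 7.27 and 6.72 in the low array set and 8.13 and 6.18 in the middle set. Probe set 1415684_at of Atg5 is on both arrays and serves as a repeat, though MOE430B also holds wt331, a mouse of the middle set that MOE430A lacks. It was at 0.10 (0.24) on MOE430A and 0.00 (0.16) on MOE430B, and at -0.03 (0.22) and -0.06 (0.13) with the block. In the middle set alone the arrays gave -0.53 (0.20, unadjusted p = 0.0362, adjusted p = 0.923, limma) and -0.08 (0.19).

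The transcription factor Tfeb, a member of the list, binds an E-box with the core CACGTG and drives genes of lysosomes and autophagy. Promoter windows of RefSeq (GRCm38.p6), with 250 bases before to 50 after the start of a gene, were found for 30 of the 37 members. The motif, which reads the same on both strands, was in the windows of 4 of these 30 genes, 13.3%, and in those of 2187 of all 27025 genes, 8.09%. The 4 genes were Atg3, Atg5, Atg7 and Atg14, so 3 of them belong to the conjugation group. Their 250 bases before the start are shown with the motif in capitals, all on the plus strand, from chr16:45158579-45158828, chr10:44268089-44268338 and chr6:114670846-114671095.
Atg3: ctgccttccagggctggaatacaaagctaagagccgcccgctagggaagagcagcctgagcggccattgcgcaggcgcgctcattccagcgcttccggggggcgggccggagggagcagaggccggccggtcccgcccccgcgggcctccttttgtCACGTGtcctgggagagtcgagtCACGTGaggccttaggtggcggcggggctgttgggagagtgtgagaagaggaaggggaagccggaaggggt
Atg5: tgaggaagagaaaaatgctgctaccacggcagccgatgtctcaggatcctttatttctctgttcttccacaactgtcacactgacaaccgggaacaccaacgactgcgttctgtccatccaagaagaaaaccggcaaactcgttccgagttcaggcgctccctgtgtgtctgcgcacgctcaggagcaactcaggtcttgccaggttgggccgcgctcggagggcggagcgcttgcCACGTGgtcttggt
Atg7: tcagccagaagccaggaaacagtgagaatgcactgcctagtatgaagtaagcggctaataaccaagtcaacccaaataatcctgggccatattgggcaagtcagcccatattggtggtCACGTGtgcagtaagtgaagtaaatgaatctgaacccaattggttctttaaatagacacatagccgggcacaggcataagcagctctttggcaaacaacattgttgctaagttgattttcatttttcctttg
Atg3 holds the motif at 2 places and the others at 1, and in Atg14 it spans the start and is not shown. The log2 fold changes of the 4 genes ran from -0.03 to 0.13 with a median of 0.05, and those of the other 25 genes with a window and a probe set from -0.57 to 0.36 with a median of 0.05.

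The Atg8 family, the ubiquitin-like proteins that mark the autophagosome membrane and bind cargo receptors, comprised Map1lc3a, Map1lc3b, Gabarap, Gabarapl1 and Gabarapl2. Of the 5 representative probe sets 4 were lower in UBB+1 tg mice and 1 higher, and none had an unadjusted p under 0.05. Their median log2 fold change was -0.49, with a median standard error of 0.43, and the median over all 11 probe sets of the family was -0.12. All 5 were lower with the block, with a median of -0.13. Map1lc3a, Gabarap and Gabarapl2 varied widely between mice of the same genotype.

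Map1lc3a (LC3A, probe set 1451290_at) was at 12.06, 9.21, 11.86, 10.33 and 10.39 in wt287, wt289, wt290, wt291 and wt321. In UBB+1 tg mice it was at 7.95 in tg270, 11.59 in tg271 and 10.08 to 10.72 in the other 4. Within each genotype the mice of the low array set were the highest and that of the high set the lowest, and the genotypes overlapped. Its log2 fold change was -0.61 (standard error 0.65, 95% interval -2.04 to 0.82), -0.35 (0.19) blocked by array set and -0.01 (0.19) in the middle set alone. On MOE430B, 1447883_x_at was at -0.14 (0.14).

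Gabarap (1416937_at) was at 10.29, 8.49, 10.22, 9.16 and 8.91 in the wild-type mice, and at 7.51 in tg270, 9.98 in tg271 and 8.67 to 9.02 in the other UBB+1 tg mice. The order of the array sets was as for Map1lc3a. Its log2 fold change was -0.57 (standard error 0.44). Blocked by array set it was -0.35 (0.13), with an unadjusted p of 0.0255 and an adjusted p of 0.687 (limma), and in the middle set alone -0.14 (0.13).

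Gabarapl2 (1423187_at) was at 9.73, 9.40, 9.60, 8.28 and 8.48 in the wild-type mice, and at 9.17 in tg270, 10.15 in tg271 and 8.01 to 8.15 in the other 4 UBB+1 tg mice. Here the low and high sets were both above the middle set. Its log2 fold change was -0.49 (standard error 0.43) and -0.08 (0.13) blocked by array set. On MOE430B, 1441376_at was at 8.09, 8.19, 7.96, 8.17, 7.85 and 7.85 in wt287, wt289, wt290, wt291, wt321 and wt331, and at 8.02 to 8.26 in the UBB+1 tg mice, each of which exceeded the wild-type mean, with a log2 fold change of 0.14 (0.08). In the middle set alone the 2 probe sets differed in sign, at -0.30 (0.10) and 0.27 (0.09). Their unadjusted p-values were 0.0223 and 0.0205, and their adjusted p-values 0.923 and 0.896 (limma). The direction of Gabarapl2 thus depended on the probe set.

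Map1lc3b (LC3B, 1415928_a_at) was at 11.83, 12.13, 11.78, 12.25 and 11.92 in the wild-type mice and at 11.62 to 12.20, with a median of 11.94, in the UBB+1 tg mice. The range over all mice was 0.63, against 4.11 for Map1lc3a. The log2 fold change was -0.04 (standard error 0.12, 95% interval -0.31 to 0.22). The other 3 probe sets were at -0.12 (1415929_at), -0.12 (1415930_a_at) and -0.01 (1428024_at, dim), the first of these at -0.24 (0.10) blocked by array set (unadjusted p = 0.0455, adjusted p = 0.690, limma).

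Gabarapl1 (1416419_s_at) was at 12.46, 11.98, 12.54, 13.02 and 12.97 in the wild-type mice and at 11.84 to 13.26, with a median of 12.72, in the UBB+1 tg mice. Within each genotype the mice of the middle set were above those of the other sets, the reverse of Gabarapl2. The log2 fold change was 0.04 (standard error 0.27), -0.13 (0.13) with the block and -0.06 (0.20) in the middle set alone. Its other probe set was at 0.00 (0.56), and at -0.18 (0.19) with the block.

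Among the cargo receptors, which carry a ubiquitin-binding domain and a motif that binds Atg8 proteins, Sqstm1 (p62, 1450957_a_at) was at 10.32, 9.45, 10.29, 9.20 and 9.62 in the wild-type mice. In UBB+1 tg mice it was at 8.99 in tg270, 9.96 in tg271 and 9.38 to 9.70 in the other 4. The highest 2 values were those of the wild-type mice of the low array set, and the genotypes overlapped. Its log2 fold change was -0.27 (standard error 0.23, 95% interval -0.78 to 0.24), -0.13 (0.13) blocked by array set, and 0.11 (0.16) in the middle set alone. A second probe set, 1444021_at on MOE430B, was at -0.03 (0.12).

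Nbr1 (1448343_a_at) was at 9.11, 9.77, 9.30, 9.47 and 9.76 in the wild-type mice and at 9.46 to 9.89, with a median of 9.54, in the UBB+1 tg mice. For Nbr1 the log2 fold change was 0.10 (standard error 0.13, 95% interval -0.19 to 0.39), which leaves a change of 1.5-fold outside the interval. Its dim probe set 1451897_a_at was at 0.01 (0.11).

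**Figure D3:**
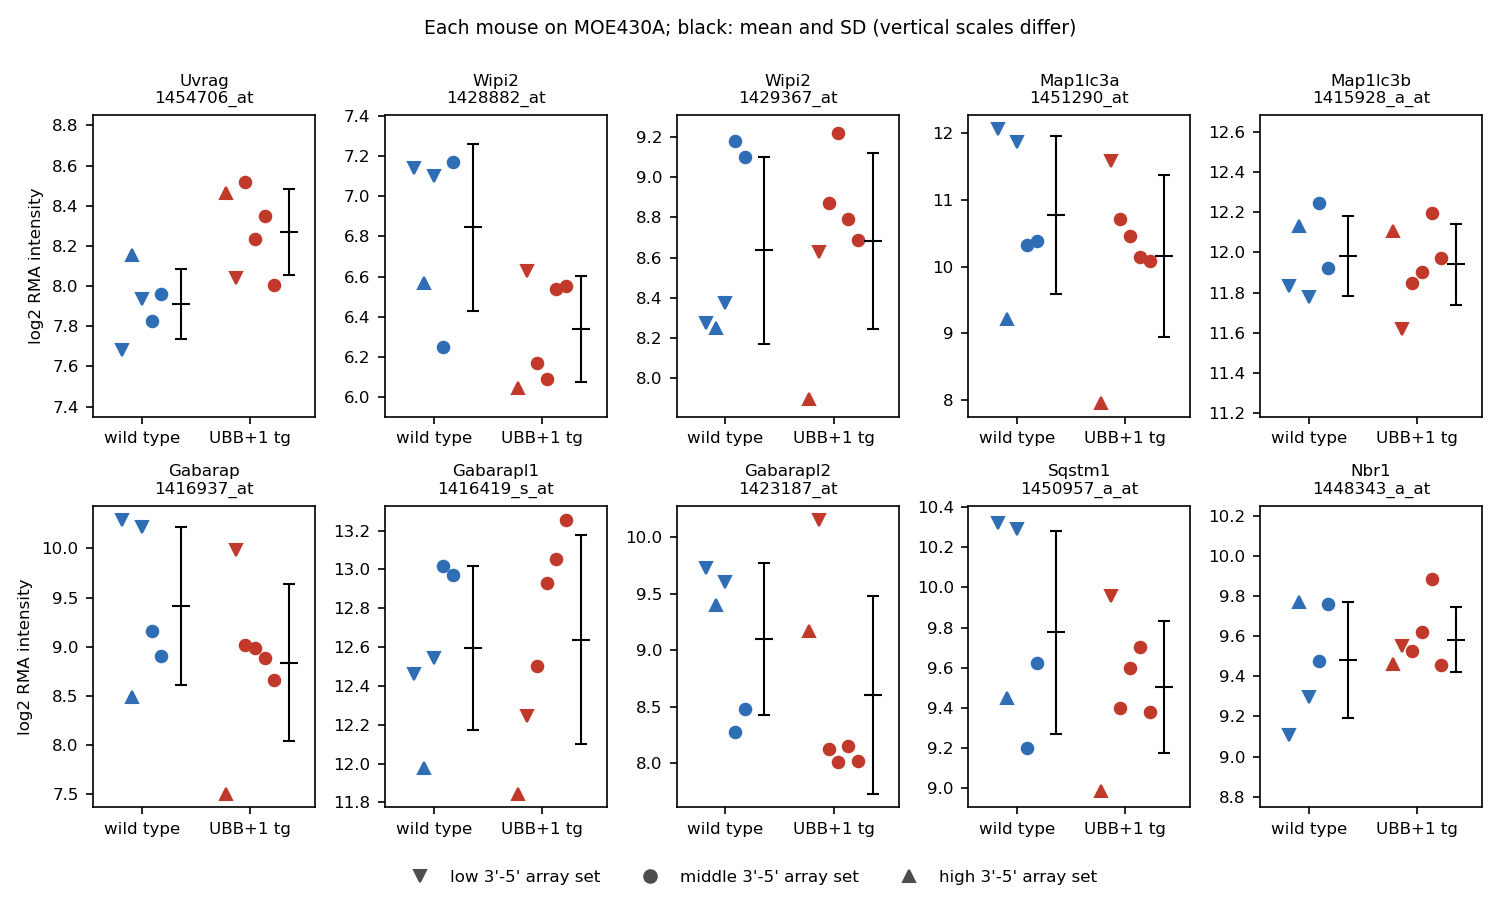
Log2 RMA intensity (vertical axes, each with its own scale) in each wild-type (blue) and UBB+1 tg mouse (red) on MOE430A for Uvrag, 2 probe sets of Wipi2, the Atg8 family and the cargo receptors, with the mean and SD in black and the array set as the symbol. For Map1lc3a and Gabarap the symbols sort by array set within both genotypes, and in every panel the genotypes overlap.

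Tfeb itself was at 7.80, 7.65, 7.57, 7.63 and 7.56 in the wild-type mice and at 7.67 to 7.85, with a median of 7.78, in the UBB+1 tg mice. All 6 exceeded the wild-type mean, but the highest wild-type mouse, wt287, lay within their range. The log2 fold change was 0.13 (standard error 0.07, 95% interval -0.02 to 0.28) and 0.13 (0.08) blocked by array set. Epg5, a tether of autophagosome and lysosome measured on MOE430B, was at 6.55 to 7.99 in UBB+1 tg and 6.36 to 7.71 in wild-type mice. Its log2 fold change was the highest of the representative probe sets, 0.49 (standard error 0.26, 95% interval -0.07 to 1.05), and was at 0.37 (0.22) blocked by array set.

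The spread of the autophagy genes followed the array sets more than the genotypes. Over the 60 probe sets on MOE430A, the median share of the variance that lay between the 3 array sets was 53.0%, against 39.6% over all probe sets, and that between the genotypes was 5.71%, against 5.40%. On MOE430B the shares were 31.0%, against 31.5%, and 2.11%, against 4.01%. The array sets come from clustering that included these probe sets, so these shares are a description, and a split into 3 groups takes a larger share than a split into 2 even where nothing differs. Of the 36 representative probe sets, 15 differed by more than 0.5 on the log2 scale between the wild-type mice of the middle and low sets, 9 higher and 6 lower in the middle set. In UBB+1 tg mice, with 1 mouse in the low set, 14 of the 15 went the same way, Ambra1 being the exception.

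The genes at the ends of this order came from different steps. In wild-type mice the middle set was below the low set by -1.60 for Map1lc3a, -1.29 for Gabarapl2, -1.24 for Atg9a and -1.22 for Gabarap. It was above the low set by 1.47 for Ulk2 and 1.31 for Rb1cc1. Uvrag and Tfeb, at 0.09 and -0.09, hardly moved between these sets in wild-type mice. In UBB+1 tg mice, with 1 mouse in the low set, the middle set was above the low set by 0.24 for Uvrag and 0.07 for Tfeb. The share of variance between genotypes was larger than that between array sets for Uvrag (49.5% against 34.3%) and Tfeb (39.3% against 3.27%), and for Atg2b and Wipi1.

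**Figure D4:**
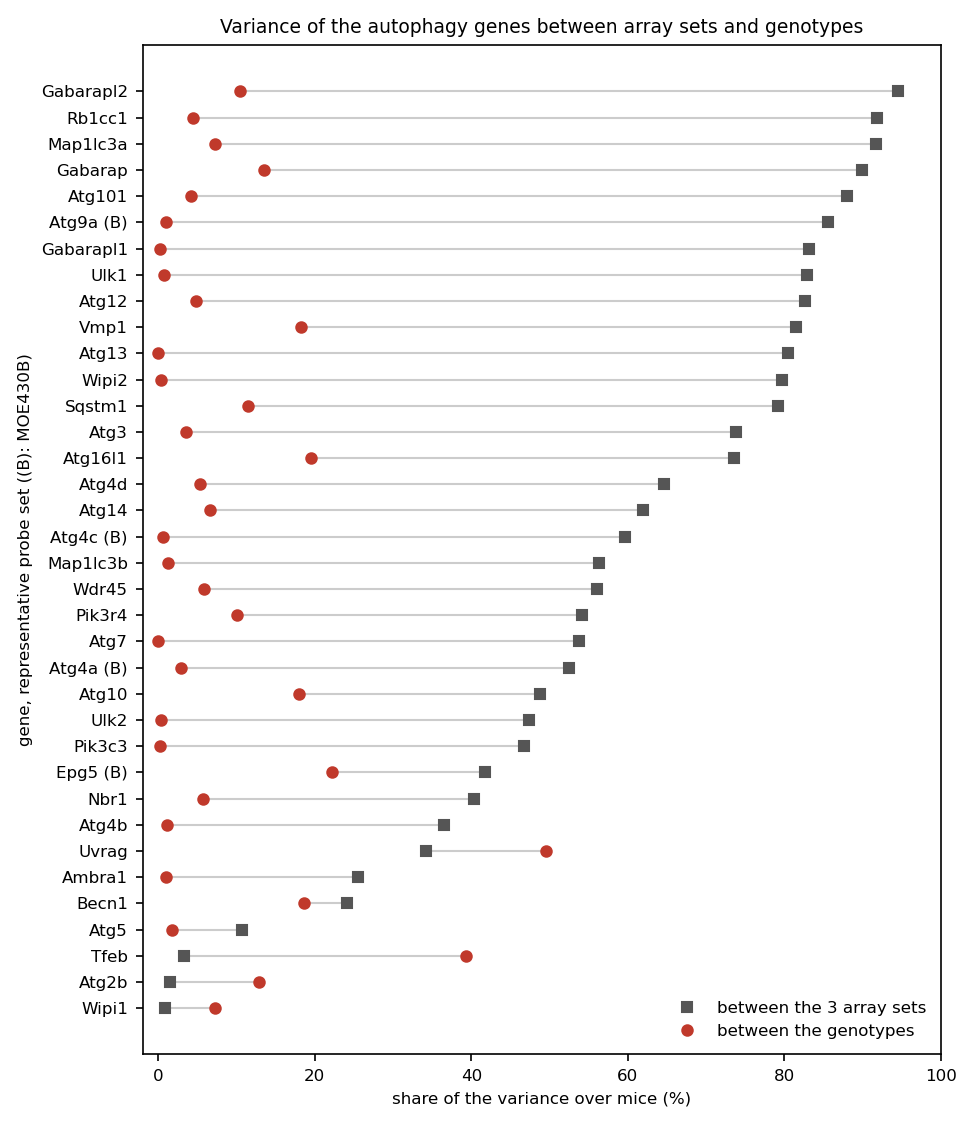
Share of the variance over mice (horizontal axis, %) that lay between the 3 array sets (grey squares) and between the genotypes (red circles) for the representative probe set of each of 36 autophagy genes (vertical axis). The squares reach 94.5% for Gabarapl2, and the circles lie to the right of the squares for Uvrag, Tfeb, Atg2b and Wipi1 only.

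Further genes of the pathway were taken from 4 lists. Of these 83 genes, 80 were measured, 41 of them higher and 39 lower in UBB+1 tg mice, with a median log2 fold change of 0.00. None passed the false discovery rate. An unadjusted p under 0.05 (limma) was found for 3 of the 80, against 3.48% of all probe sets on MOE430A and 3.05% on MOE430B. In the list of mTORC1 and AMPK, the nutrient-sensing kinases that control initiation, 16 of 29 were higher, and Rragc, a GTPase that recruits mTORC1 to the lysosome, was at 0.42 (standard error 0.18), Prkaa1, an AMPK catalytic subunit, at 0.18 (0.08, with a dim probe set on MOE430B) and Lamtor2 at -0.68 (0.45).

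Of 15 genes of fusion with the lysosome, 7 were higher and 8 lower. Vps16, a subunit of the HOPS tether, was at -0.44 (standard error 0.12, unadjusted p = 0.00475, adjusted p = 0.984, limma), Vps39 at 0.37 (0.26) and Vps18 at -0.25 (0.19). Of 17 measured genes of selective autophagy, 9 were higher and none had an unadjusted p under 0.05, with Ubqln1 at 0.36 (0.17), Tollip at 0.25 (0.12) and Tax1bp1 at 0.46 (0.27). Of 19 further core and regulatory factors, 9 were higher, with Mitf, a relative of Tfeb, at 0.42 (0.20), Zkscan3 at 0.25 (0.15) and Nrbf2 at 0.43 (0.30).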

How the data were processed

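Expression was measured in laser-cut CA3 on Affymetrix MOE430A and MOE430B arrays. The authors deposited RMA values (background correction, quantile normalization and summary per probe set, each array kind by itself): linear intensity in whole numbers on MOE430A, which was log2-transformed here, and log2 values on MOE430B. The RMA version is not given in the sources used here. Array medians were 6.32 to 6.34 and 5.49 to 5.50, and precision is limited by the number of arrays. On MOE430A, 64 control probe sets and the probe set of the transgene promoter were left out, and 64 on MOE430B. Symbols came from the platform annotation, updated through Entrez identifiers.

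UBB+1 tg minus wild type was fitted per array with lmFit and eBayes of limma 3.58.1 (R 4.3.3) and adjusted by Benjamini-Hochberg over the whole array. The fit was tested on simulated data. The 3′-5′ difference was compared with an exact permutation test (scipy 1.17.1). Per gene the brightest probe set, from MOE430A where it had one, stood for the gene. All members were named, with values in each mouse for those at an unadjusted p under 0.05, the Atg8 family and the cargo receptors, and in the other pathway lists the 3 genes with the smallest p. Values for Tfeb and Epg5 by mouse or range were added after they had been seen. Dim means a mean under the 25th percentile of the array. The members and lists were chosen with earlier results of these data known. Alternatives were a false discovery rate of 5%, a trended and robust variance, array weights, a second quantile normalization, median centring, fits without dim or without cross-hybridising probe sets, the 3′-5′ difference as a covariate, the array set as a block or the largest set alone, probe sets averaged per gene, a joint adjustment over the arrays and leaving out each mouse. Array sets came from clustering (complete linkage) of the arrays by Pearson r, which was 0.945 to 0.991 between MOE430A and 0.936 to 0.987 between MOE430B arrays, with no identical pair. No paired analysis was possible because the genotypes share no animal numbers or litters in the labels. The p-values rest on the spread between mice, in which differences of mouse, dissection, amplification and array cannot be told apart.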

Additional observations from a re-analysis of the deposited data

Results flagged for a closer look

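In 6 of 74 groups of mice, the highest or lowest mouse stood apart from the rest of its genotype by Dixon's test at the 95% level, which flags about 1 in 20 groups by chance. Atg10 was at 6.67 in wt287, against 7.74 to 7.83 in the other wild-type mice, and its log2 fold change was 0.33 with wt287 and 0.11 without it. Atg101 was at 6.52 in tg270, with the nearest UBB+1 tg mouse at 8.06, and its log2 fold change was -0.29 with tg270 and 0.04 without it. Atg13 was at 7.41 in wt289, with the nearest wild-type mouse at 7.89, and its log2 fold change was -0.10 without wt289. Atg4a was at 7.73 in tg271, with the nearest UBB+1 tg mouse at 6.85, and its log2 fold change was -0.07 without tg271. Atg5 was at 6.83 in tg276, with the nearest at 7.03, and its log2 fold change was 0.01 without tg276. Becn1 was at 8.36 in wt291, with the nearest wild-type mouse at 8.69, and its log2 fold change was -0.25 without wt291. The mice wt289 and tg270 belong to the high array set, and wt287 and tg271 to the low one.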

How the results depend on the processing

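No member's probe set passed the false discovery rate under any alternative that was run. On MOE430B, 1 probe set that is no member's passed with the 3′-5′ covariate, 1 gene with probe sets averaged per gene, and 0 to 1 when each mouse was left out (1 without wt291). The 2 members' probe sets at an unadjusted p under 0.05 on MOE430A became 5 with array weights, 6 when blocked by array set, 6 in the largest array set alone, 1 with probe sets averaged per gene, and 1 to 4 when each mouse was left out (4 without tg271, 1 without wt290 or wt321). The 0 on MOE430B became 2 with array weights, 1 in the largest array set alone, and 0 to 1 when each mouse was left out (1 without tg271 or wt291). The shares of all probe sets at that p were 3.48% on MOE430A, or 7.19% with the block, and 3.05% on MOE430B. For the other settings no such share is given, so their counts alone do not set the members apart. The cause was not tested. The median log2 fold change on MOE430A was -0.02 with the block and in the largest array set alone and 0.02 to 0.05 under the other settings, and -0.03 to 0.07 when each mouse was left out. Of the 36 representative probe sets, 14 kept their sign in each alternative that fitted them, among them those of Uvrag, Tfeb, Epg5, Becn1, Map1lc3a, Gabarap and Gabarapl2. Averages per gene were not part of that count, 5 of the 14, Becn1 among them, had no fit without cross-hybridising probe sets, and Becn1 and Gabarapl2 had the opposite sign on MOE430B. The block turned the sign of 9, the largest array set alone that of 10, and leaving out a mouse that of 16. Uvrag, singled out by the smallest p of the 84 probe sets, had an unadjusted p under 0.05 in each alternative that fitted its probe set. These fits reuse the same mice and are no independent support, and its adjusted p in the main fit was 0.984 (limma). With 11 and 12 arrays, a change of 2-fold lay inside the interval for 6 genes.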
